A study of Mus musculus with 8 samples.

Results

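The neurons of each layer of the cerebral cortex are specified by transcription factors whose expression in the adult still marks the layers. The dorsal and ventral parts of the medial entorhinal cortex (MEC), the region that holds grid cells, were compared here for 9 of these factors, namely Cux1, Cux2, Rorb, Fezf2, Bcl11b, Etv1, Tbr1, Sox5 and Foxp2. The members are a list of known layer factors, matched by gene symbol. The rule uses no measured value, but the list was drawn up with earlier results of these data known. They were 9 of the 38553 genes listed, and all 9 were among the 13674 genes tested. None of the 9 passed the test for a difference between dorsal and ventral MEC, which 3.60% of all genes tested passed, so a count of 0 among 9 genes is near that share.

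RNA-Seq had been carried out on 4 dorsal and 4 ventral libraries from male C57Bl/6JolaHsd mice aged 8 weeks, which had received no treatment that the labels state. The mice, 13 in all, formed 4 groups, and the right MEC of each was cut as 1 acute sagittal slice of 400 µm, from which a dorsal and a ventral piece were dissected. Tissue was pooled by region with 3 or 4 mice in a group, so libraries vary as pools of mice do, and which dorsal and ventral pools share mice is not given. The pieces hold all layers and cell types, and a lower level in such tissue can reflect fewer cells of a type or less RNA per cell, which cannot be told apart.

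The libraries are numbered here in the order of the value columns. Dorsal libraries 2 and 4 and ventral libraries 1 and 3 carry the letter of the other region in their column headers. The regions used are those whose means over 4 libraries equal the deposited mean of the first and second condition, which the study lists as dorsal and ventral. By the headers' letters no member was called either, but only 1 of the 13674 genes tested was, so this says nothing about the members. Values are FPKM, fragments per kilobase of exon scaled to the number of fragments mapped, so levels can be set beside each other between genes. Fragment totals were not used here, and the depth behind the values was therefore not looked at. The sum of FPKM over all genes ranged from 310418 to 341402 in dorsal and from 298763 to 335328 in ventral libraries.

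Cux1 and Cux2 encode CUT homeodomain proteins and mark the neurons of the upper layers, where they act in dendrite and synapse formation. Rorb, a nuclear receptor, marks layer IV of sensory neocortex. Fezf2 specifies the neurons of layer V that project below the cortex, and Bcl11b (CTIP2) acts downstream of it. Etv1 (ER81), an ETS factor, marks another set of layer V neurons. Tbr1, a T-box factor, marks layer VI and represses Fezf2 there, Sox5 delays the subcortical programme in the early born deep neurons, and Foxp2 marks corticothalamic neurons of layer VI. The adult MEC has no granular layer IV, and the layers named here are those of neocortex, given as background.

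The 9 genes lie on 6 chromosomes of the GRCm38 build, and all are protein coding in GENCODE M21. Cux1 spans chr5:136248135-136567490 on the minus strand, with 14 annotated transcripts. Some transcripts of this gene encode CASP, a Golgi protein that lacks the homeodomain, and the FPKM of Cux1 sums all of them. Cux2 lies on the same chromosome at chr5:121856366-122050102, also on the minus strand. Rorb is at chr19:18930605-19111196 (minus), Fezf2 at chr14:12342094-12348189 (minus) and Bcl11b at chr12:107910403-108003602 (minus). Etv1 is at chr12:38779380-38870484 (plus), Tbr1 at chr2:61802930-61814114 (plus), Sox5 at chr6:143828425-144781977 (minus) and Foxp2 at chr6:14901349-15441977 (plus). They range in span from 6.096 kb for Fezf2 to 953.553 kb for Sox5. Whether counting used the strand is not given in the sources used here. Antisense genes overlap exons of 2 members, Gm16599 over 394 exonic bases of Cux1 and Sox5os1 over 1330 of Sox5, and their mean levels were 0.138 and 0.784 FPKM.

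The promoters of 8 of the 9 members, in 11 windows of 300 bases, are held in the RefSeq sequences for GRCm38.p6, each from 250 bases before to 50 bases after an annotated start, with none for Foxp2. They were searched on both strands for a core motif of each DNA-binding family among the members: ATCGAT for CUX, AACAAT for SOX, TGTTTAC for FOX, AGGTCA for ROR, AGGTGTGA for T-box and CCGGAAGT for ETS. None of these motifs overlapped another in the member windows. The 4 member windows that hold a match are shown 5′ to 3′ on the strand of the gene, because they are where a member carries the letters of another or of its own family, with the match in capitals.
Cux1, chr5:136565932-136566231, FOX motif: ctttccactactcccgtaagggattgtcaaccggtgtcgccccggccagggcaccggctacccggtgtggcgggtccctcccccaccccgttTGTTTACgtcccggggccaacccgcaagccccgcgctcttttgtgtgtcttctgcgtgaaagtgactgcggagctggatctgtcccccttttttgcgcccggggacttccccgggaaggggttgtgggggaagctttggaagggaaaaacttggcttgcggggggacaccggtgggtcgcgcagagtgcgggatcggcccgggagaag
Cux2, chr5:122047776-122048075, CUX motif: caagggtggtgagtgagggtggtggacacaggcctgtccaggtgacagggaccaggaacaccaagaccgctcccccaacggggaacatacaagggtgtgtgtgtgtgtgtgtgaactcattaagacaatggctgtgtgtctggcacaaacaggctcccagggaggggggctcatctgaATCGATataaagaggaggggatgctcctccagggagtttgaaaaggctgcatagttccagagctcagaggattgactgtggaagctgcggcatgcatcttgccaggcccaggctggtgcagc
Etv1, chr12:38783461-38783760, SOX motif: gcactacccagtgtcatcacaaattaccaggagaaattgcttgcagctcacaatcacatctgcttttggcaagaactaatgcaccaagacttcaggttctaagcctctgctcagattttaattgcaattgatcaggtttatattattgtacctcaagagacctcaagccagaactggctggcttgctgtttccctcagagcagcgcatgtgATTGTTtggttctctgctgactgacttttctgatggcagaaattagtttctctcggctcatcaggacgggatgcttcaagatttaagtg
Tbr1, chr2:61804203-61804502, SOX motif: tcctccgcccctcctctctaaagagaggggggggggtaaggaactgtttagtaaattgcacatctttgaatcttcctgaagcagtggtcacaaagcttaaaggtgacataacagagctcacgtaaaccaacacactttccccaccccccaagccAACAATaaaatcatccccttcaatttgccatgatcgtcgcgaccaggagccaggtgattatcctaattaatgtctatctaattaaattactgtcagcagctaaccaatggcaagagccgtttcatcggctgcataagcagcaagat

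The CUX letters were found in 1 of 11 member windows and in 0.925% of all 32851 promoter windows. The SOX letters were found in 2 of 11 member windows against 10.7% of all windows, and the FOX letters in 1 of 11 against 3.65%. The ROR, T-box and ETS letters were in no member window and in 16.3%, 1.28% and 3.89% of all windows. Cux2 and Etv1 each have another window without a match. GC content ranged from 39.7% to 80.3% over the member windows, with a median of 52.7% over all windows. These matches describe the sequence alone.

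The 9 factors covered a wide range of levels. Over the 8 libraries Cux1 had the highest mean, at 50.9 FPKM, followed by Tbr1 at 33.7, Sox5 at 19.3, Etv1 at 15.04, Cux2 at 13.2, Rorb at 11.2, Fezf2 at 10.1, Bcl11b at 9.75 and Foxp2 at 5.55. Cux1 was at percentile 91.9 and Foxp2 at percentile 39.5 of the tested genes by mean FPKM. Cux1 exceeded Tbr1 in 8 of 8 libraries and Tbr1 exceeded Sox5 in 8 of 8, with ranges that did not overlap, and Bcl11b exceeded Foxp2 in the same way. The genes between Sox5 and Bcl11b in this order had overlapping ranges with their neighbours. Sox5 was above Etv1 in 7 of 8 libraries, Etv1 above Cux2 in 6, Cux2 above Rorb in 8 and Rorb above Fezf2 in 6. Fezf2 was above Bcl11b in 4 of 8 libraries, and these neighbours were not ordered beyond their spread. The place of Cux2 rests on 1 of the 2 entries under its symbol. Both entries together summed to a mean of 47.2 FPKM, above Tbr1 in 8 of 8 libraries and above Cux1 in 3, so the place of Cux2 in this order is uncertain.

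**Figure D1:**
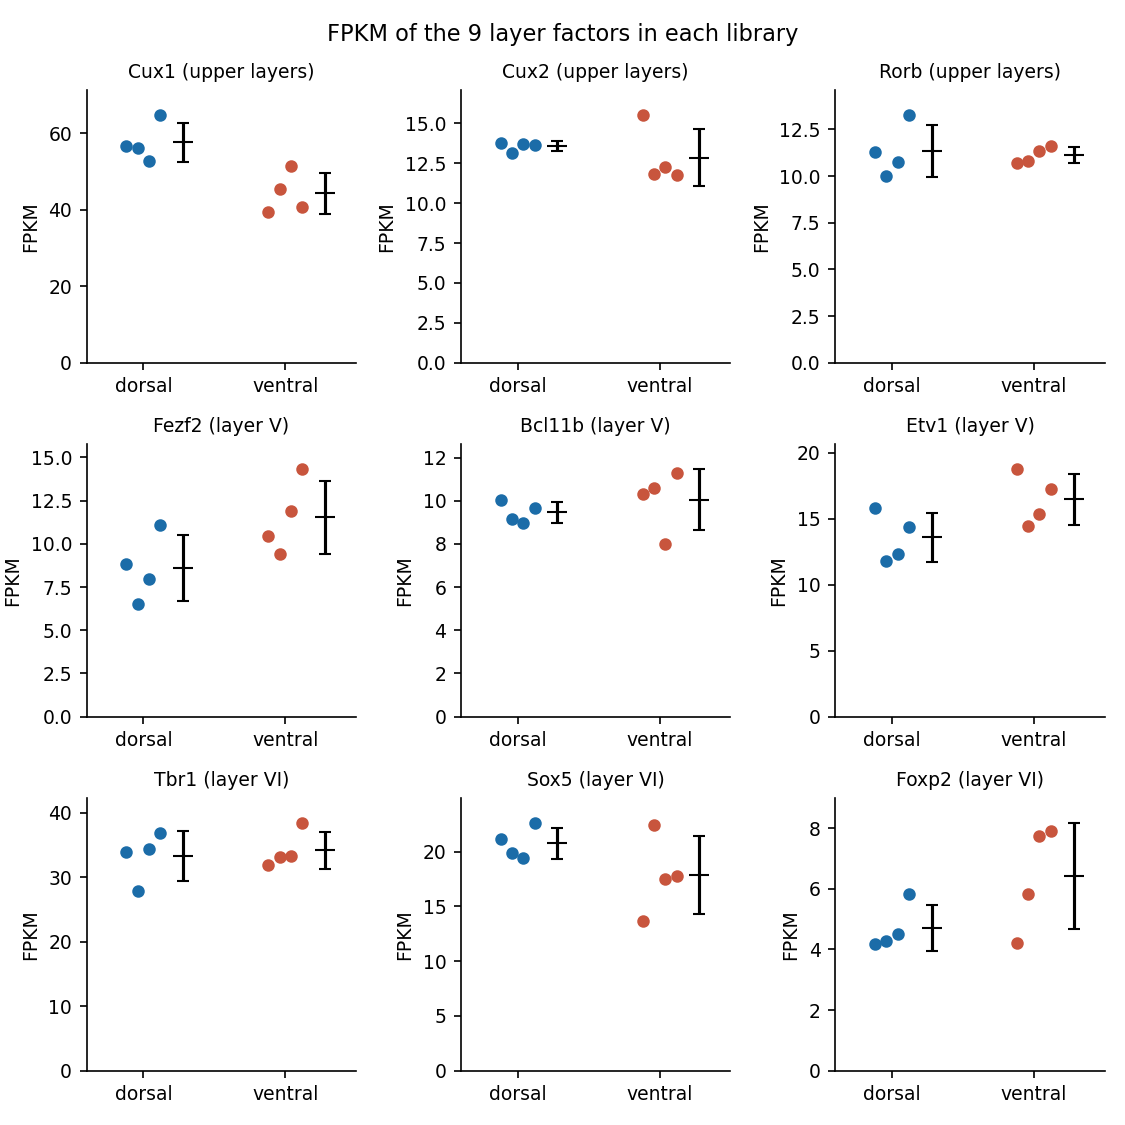
FPKM (y axis, from 0) of each layer factor in the 4 dorsal (blue) and 4 ventral (red) libraries, with the mean and SD of each region as a black bar, in rows for upper layer, layer V and layer VI factors. The dorsal and ventral points are apart for Cux1 alone, between 52.7 and 64.7 against 39.5 and 51.5.

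Differences between regions were tested with limma on log2(FPKM + 1) over all 13674 genes, and a gene was called where its Benjamini-Hochberg adjusted p was under 0.05 and the means differed by at least 1.2-fold. Log2 fold changes are ventral against dorsal on that scale, which understates the change of low genes. Of all genes tested, 2.15% were called as higher in dorsal and 1.45% as higher in ventral MEC, 3.60% in all. The members called were 0 of 9, with an unadjusted p under 0.05 for 3 of 9 (Cux1, Fezf2 and Etv1) against 16.0% of all genes. The libraries of the regions did not overlap for 1 of 9 members (Cux1) against 11.1% of all genes. The median log2 fold change of the members was 0.04, with 4 below (Cux2 by its tested entry) and 5 above 0, and that of all genes was -0.01. Without regard to sign, the median was 0.22 for the members and 0.10 for all genes.

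Of the 3 upper layer factors, Cux1 showed the largest difference and the others little, with Cux2 read from its tested entry alone. Cux1 measured 56.7, 56.2, 52.7 and 64.7 FPKM in dorsal libraries 1 to 4 and 39.5, 45.3, 51.5 and 40.8 FPKM in ventral libraries 1 to 4. Every dorsal library was above every ventral one, with ventral library 3 the nearest to the dorsal range. The means were 57.6 ± 5.05 and 44.2 ± 5.44 FPKM (SD, n = 4 each), a ratio of ventral to dorsal of 0.768. The log2 fold change was -0.38 (SE 0.09, 95% interval -0.59 to -0.17), with an unadjusted p of 0.00245 and an adjusted p of 0.0598 by limma, so Cux1 was not called. Without ventral library 3 it was called as higher in dorsal MEC, with an adjusted p of 0.0284, and without each other library in turn it was not, with an adjusted p of up to 0.163.

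Cux2 measured 13.8, 13.1, 13.7 and 13.6 FPKM in the dorsal libraries and 15.5, 11.9, 12.3 and 11.8 FPKM in the ventral libraries. The dorsal libraries lay close together, and the ventral ones fell on both sides of them. The log2 fold change was -0.08 (SE 0.09, limma adjusted p = 0.731), and its 95% interval ran from 0.827-fold to 1.08-fold. The Cux2 symbol has a second entry at the same locus, ENSMUSG00000072641, which is not in GENCODE M21. The authors' status column marks it LOWDATA and does not pass it for testing. That entry was listed at 31.1 ± 3.46 FPKM in dorsal and 36.8 ± 5.22 FPKM in ventral libraries (SD, n = 4 each). It was above the tested entry and ran in the other direction. Both entries summed to 44.7 ± 3.66 FPKM in dorsal and 49.7 ± 6.72 FPKM in ventral libraries. The division of fragments between the 2 entries makes the level of Cux2 and the direction of its difference uncertain.

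Rorb measured 11.3, 10.01, 10.7 and 13.3 FPKM in the dorsal and 10.7, 10.8, 11.3 and 11.6 FPKM in the ventral libraries. The ventral values lay within the dorsal range, which dorsal library 4 extends upwards. The log2 fold change was -0.02 (SE 0.08, limma adjusted p = 0.9505). Its 95% interval, from 0.867-fold to 1.12-fold, held no difference as large as 1.2-fold in either direction on this scale.

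The layer V factors had higher ventral than dorsal means, and none passed the test. Fezf2 measured 8.82, 6.53, 7.98 and 11.1 FPKM in the dorsal and 10.5, 9.42, 11.9 and 14.3 FPKM in the ventral libraries. Only dorsal library 4 reached into the ventral range. The means were 8.60 ± 1.90 and 11.5 ± 2.12 FPKM (SD, n = 4 each), a ratio of 1.34, with a log2 fold change of 0.39 (SE 0.15, limma unadjusted p = 0.0289, adjusted p = 0.239).

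Bcl11b, which acts downstream of Fezf2, measured 10.03, 9.14, 8.98 and 9.68 FPKM in the dorsal and 10.3, 10.6, 8.01 and 11.3 FPKM in the ventral libraries. The ventral libraries included both the lowest and the highest value. Its log2 fold change was 0.07 (SE 0.10, limma adjusted p = 0.793), with a 95% interval from 0.904-fold to 1.22-fold.

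Etv1 measured 15.8, 11.8, 12.4 and 14.4 FPKM in the dorsal and 18.8, 14.5, 15.4 and 17.3 FPKM in the ventral libraries. Dorsal library 1 was above ventral libraries 2 and 3, and the other dorsal libraries were below all ventral ones. The means were 13.6 ± 1.84 and 16.5 ± 1.92 FPKM (SD, n = 4 each), a ratio of 1.21. The log2 fold change was 0.26 (SE 0.11, limma unadjusted p = 0.0334, adjusted p = 0.259).

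The layer VI factors did not share a direction. Tbr1 measured 33.9, 27.9, 34.4 and 36.9 FPKM in the dorsal and 31.9, 33.1, 33.2 and 38.4 FPKM in the ventral libraries. Dorsal library 2 was below every ventral library, ventral library 4 was above every dorsal one, and the other libraries overlapped. The log2 fold change was 0.04 (SE 0.09, limma adjusted p = 0.889), and the 95% interval from 0.891-fold to 1.19-fold held no difference as large as 1.2-fold on this scale.

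Sox5 measured 21.1, 19.8, 19.4 and 22.6 FPKM in the dorsal and 13.7, 22.4, 17.5 and 17.8 FPKM in the ventral libraries. Ventral library 2 was just below the highest dorsal library, and the other ventral libraries were below all dorsal ones. The log2 fold change was -0.22 (SE 0.12, limma unadjusted p = 0.0992, adjusted p = 0.427).

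Foxp2 measured 4.19, 4.27, 4.51 and 5.83 FPKM in the dorsal and 4.19, 5.82, 7.73 and 7.89 FPKM in the ventral libraries. Ventral library 1 was at the bottom of the dorsal range, and ventral libraries 3 and 4 were above it. The coefficient of variation over the ventral libraries was 27.3%, the highest of the members. The means of 4.70 ± 0.766 and 6.41 ± 1.75 FPKM (SD, n = 4 each) gave the largest ratio among the members that were higher in ventral MEC, 1.36, but the log2 fold change of 0.35 (SE 0.17) had a limma adjusted p of 0.345.

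**Figure D2:**
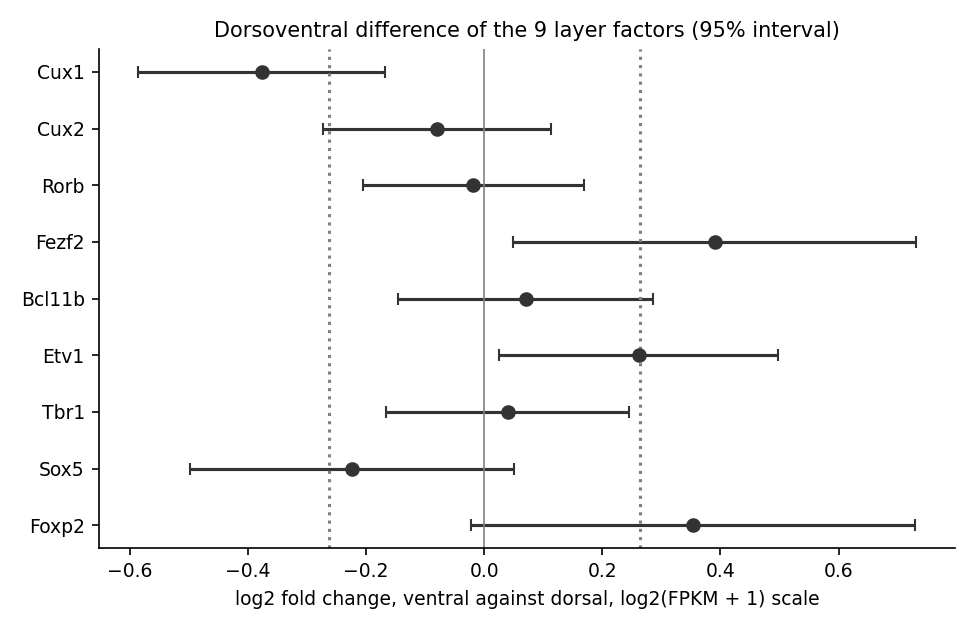
Log2 fold change of each layer factor, ventral against dorsal, from limma on log2(FPKM + 1), with its 95% interval as a horizontal bar, a solid line at 0 and dotted lines at a 1.2-fold difference. The intervals of Cux1, Fezf2 and Etv1 leave out 0, and those of Rorb and Tbr1 stay inside the dotted lines.

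The highest value of a member fell on 3 of the 8 libraries and the lowest on 5. Ventral library 4 was the highest of all for 4 members (Bcl11b, Fezf2, Tbr1 and Foxp2) dorsal library 4 for 3 (Cux1, Sox5 and Rorb) and ventral library 1 for 2 (Cux2 and Etv1). Dorsal library 2 was the lowest for 4 members (Fezf2, Tbr1, Etv1 and Rorb) and ventral library 1 for 2 (Cux1 and Sox5). Dorsal library 4 and ventral library 4 also had the highest sums of FPKM over all genes in their regions, 341402 and 335328. With each library rescaled to one total, 0 of 9 members were called, and the log2 fold changes of Cux1 and Fezf2 were -0.33 and 0.43, where the median of all genes was 0.04.

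A ratio of 2 factors within a library does not depend on how libraries are scaled. The members were therefore compared in 3 pairs, with an exact two-sided permutation test over the 70 ways to assign 4 of 8 libraries, whose smallest p is 0.0286, and with p-values adjusted over the 3 pairs. With no other pair at that smallest p, a pair could not reach an adjusted p under 0.05. The adjusted values therefore cannot decide whether a single pair differs. The ratio of Cux1 to its paralog Cux2 was 4.11, 4.28, 3.84 and 4.74 in dorsal libraries 1 to 4 and 2.54, 3.82, 4.19 and 3.46 in ventral libraries 1 to 4. Ventral library 3 lay within the dorsal range, and the other ventral libraries were below all dorsal ones. The geometric means of 4.23 and 3.44 differed by -0.30 on the log2 scale (exact p = 0.114, adjusted p = 0.143). This ratio uses the tested Cux2 entry alone. With the FPKM of both Cux2 entries summed, an alternative chosen after the data were seen, the ratio was 1.09 to 1.40 in dorsal and 0.669 to 1.17 in ventral libraries, and the log2 difference was -0.53 (exact p = 0.0571, adjusted p = 0.0857).

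The ratio of Tbr1 to Fezf2, which Tbr1 represses in layer VI, was 3.85, 4.27, 4.31 and 3.33 in the dorsal libraries and 3.05, 3.51, 2.79 and 2.68 in the ventral libraries. Dorsal library 4 lay below ventral library 2, and the other dorsal libraries were above all ventral ones. The geometric means were 3.92 and 2.99, a difference of -0.39 on the log2 scale (exact p = 0.0571, adjusted p = 0.143). The ratio of Fezf2 to Bcl11b ranged from 0.714 to 1.14 in dorsal and from 0.890 to 1.49 in ventral libraries, a log2 difference of 0.35 (exact p = 0.143, adjusted p = 0.143).

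A further 5 ratios, chosen after the data were seen, set members beside a paralog, a gene of the same family. Rora, the paralog of Rorb, was called as higher in dorsal MEC, while Rorb was not called. Rora measured 29.7 to 32.8 FPKM in dorsal and 20.3 to 23.9 FPKM in ventral libraries, with means of 31.1 ± 1.44 and 21.6 ± 1.54 (SD, n = 4 each). Its log2 fold change was -0.51 (SE 0.07, limma adjusted p = 0.00272), and it was called without each of the 8 libraries in turn. The ratio of Rorb to Rora was 0.374, 0.315, 0.361 and 0.404 in the dorsal libraries and 0.502, 0.453, 0.558 and 0.549 in the ventral libraries. Every ventral ratio was above every dorsal one, a difference of 0.51 on the log2 scale. Its exact two-sided p was 0.0286, the smallest that 70 assignments can give, and 0.0714 after adjustment over the 5 ratios.

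Etv5, an ETS factor related to Etv1, had a mean of 34.8 ± 2.99 FPKM in dorsal and 25.2 ± 4.98 FPKM in ventral libraries (SD, n = 4 each) and was not called (limma adjusted p = 0.0801). Without ventral library 4 it was called as higher in dorsal MEC (adjusted p = 0.0268). The ratio of Etv1 to Etv5 was 0.455, 0.387, 0.337 and 0.386 in the dorsal and 0.803, 0.734, 0.582 and 0.549 in the ventral libraries. These groups did not overlap, and the log2 difference was 0.76 (exact p = 0.0286, adjusted p = 0.0714). Both this ratio and that of Rorb to Rora had the smallest p possible. With no other ratio at that p, 0.0714 was the lowest adjusted p they could reach, so it cannot decide whether they differ. The ratios of Sox5 to Sox6, Bcl11b to Bcl11a and Foxp2 to Foxp1 overlapped between regions, with log2 differences of -0.29, 0.11 and 0.23 (adjusted exact p of 0.238, 0.357 and 0.486). Without ventral library 2, the only ventral library whose Sox5 to Sox6 ratio (3.77) was not below all dorsal ones, that difference was -0.42 (adjusted exact p = 0.0476). In the same setting Etv1/Etv5 (0.71) and Rorb/Rora (0.57) had the same adjusted p. These ratios were tied at one p, and that tie set the adjusted value.

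**Figure D3:**
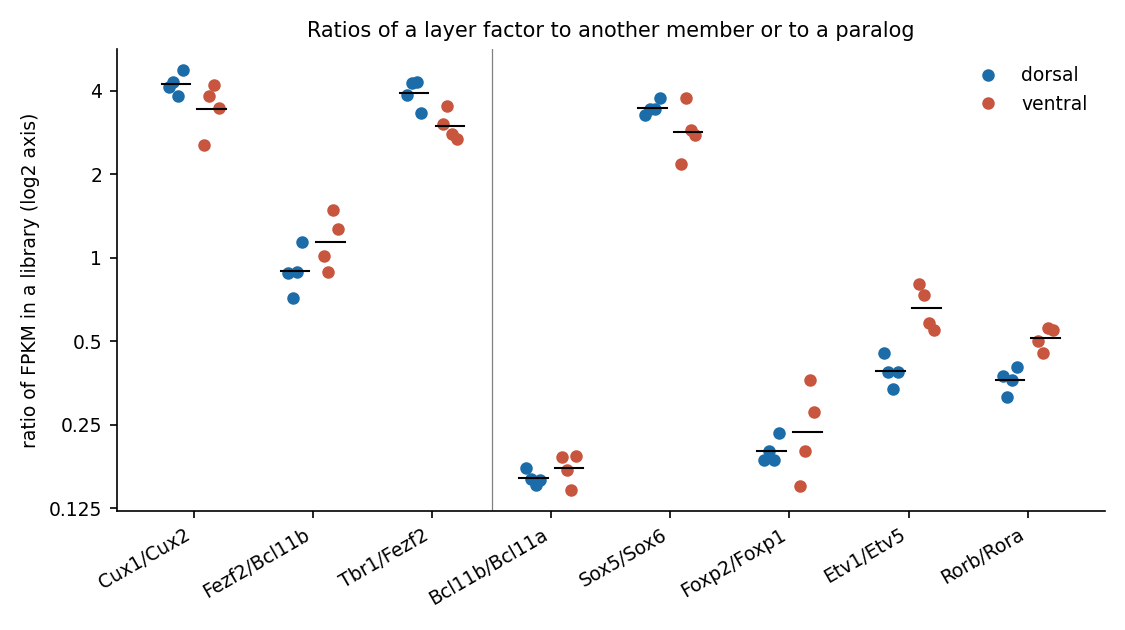
Ratio of the FPKM of 2 genes within each library (y axis, log2 spaced) for 3 pairs of layer factors and, right of the vertical line, 5 ratios of a layer factor to a paralog, in dorsal (blue) and ventral (red) libraries with the geometric mean as a bar. The dorsal and ventral ratios are apart for Etv1/Etv5, 0.337 to 0.455 against 0.549 to 0.803, and for Rorb/Rora, 0.315 to 0.404 against 0.453 to 0.558.

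The factors that work with the members were followed in a list of 24 partner factors, which holds cofactors and other layer regulators such as Pou3f2 and Lhx2. Of the 23 tested, 1 was higher in dorsal and 0 in ventral MEC. That is 4.35% called, near the 3.60% of all genes. The median log2 fold change was 0.02, and the untested gene was Pou3f1. The called factor was Pou3f2 (Brn2), a POU factor of upper layer neurons, with 2.71 to 3.28 FPKM in dorsal and 1.73 to 1.95 FPKM in ventral libraries. Its log2 fold change was -0.49 (SE 0.09, limma adjusted p = 0.0143), and it lost its call without ventral library 1, where the adjusted p was 0.0512. Without ventral library 4, Lhx2 was called as higher in ventral MEC (adjusted p = 0.0310), and at a mean FPKM of at least 5 Zbtb18 was called as higher in dorsal MEC (adjusted p = 0.0472).

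Of 13 paralogs of the members, 8 were tested and Rora was the 1 called, beside 3.60% of all genes. Bcl11a stands in both lists. The 5 not tested were low, and Tbx21 was listed at 0 in every library. The median log2 fold change of the paralogs was -0.06.

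Markers of the layers that encode other kinds of protein were taken as 2 lists, chosen with earlier results of these data known. Of 10 upper layer markers, all tested, 2 were higher in dorsal and 5 in ventral MEC, beside 2.15% and 1.45% of all genes. The median log2 fold change was 0.35. Lamp5, a lysosome-associated membrane protein, was 43.3 ± 2.65 FPKM in dorsal and 28.3 ± 1.49 FPKM in ventral libraries (SD, n = 4 each). Wfs1, the wolframin protein of the endoplasmic reticulum and a marker of layer II pyramidal cells in the MEC, was 76.6 ± 9.09 and 52.5 ± 4.45 FPKM. These markers had log2 fold changes of -0.59 and -0.53 (limma adjusted p = 0.00139 and 0.0133).

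The markers higher in ventral MEC were Unc5d, a netrin receptor, Calb1, the calcium-binding protein calbindin, Mdga1, a cell adhesion protein, Rasgrf2, a Ras exchange factor, and Cacna1h, a T-type calcium channel. Unc5d rose from 5.73 ± 0.479 to 9.14 ± 0.226 FPKM (SD, n = 4 each), a log2 fold change of 0.59 (limma adjusted p = 0.00187). Calb1 measured 4.44 to 4.80 FPKM in dorsal and 6.08 to 10.7 FPKM in ventral libraries (log2 fold change 0.64, adjusted p = 0.0306). Mdga1, Rasgrf2 and Cacna1h had log2 fold changes of 0.73, 0.53 and 0.52, with adjusted p-values of 0.0429, 0.0346 and 0.0340. Lamp5, Wfs1 and Unc5d were called without each of the 8 libraries in turn. Calb1 kept its call in 3 of those 8 fits (without ventral library 1, 2 or 3), Mdga1 in 2 (without dorsal library 1 or ventral library 2), Rasgrf2 in 1 (without ventral library 3) and Cacna1h in 1 (without ventral library 4). Rasgrf2 was also not called with each library rescaled to one total.

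Of 13 deep layer markers, 12 were tested, 0 were higher in dorsal and 2 were higher in ventral MEC, beside 2.15% and 1.45% of all genes. The median log2 fold change was 0.21. Crym, a thyroid hormone-binding protein of layer V neurons, rose from 33.3 ± 4.61 to 57.4 ± 4.25 FPKM (SD, n = 4 each), with a log2 fold change of 0.77 (limma adjusted p = 0.00235). Syt6, a synaptotagmin of layer VI neurons, rose from 2.10 ± 0.252 to 3.73 ± 0.489 FPKM, with a log2 fold change of 0.60 (limma adjusted p = 0.0103). Both were called without each of the 8 libraries in turn. With each library rescaled to one total, Grik3 was called as well (higher in ventral, adjusted p = 0.0465). Without ventral library 4, Ntsr1 (higher in ventral, adjusted p = 0.04997) and Pcp4 (higher in dorsal, adjusted p = 0.0341) were called.

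**Figure D4:**
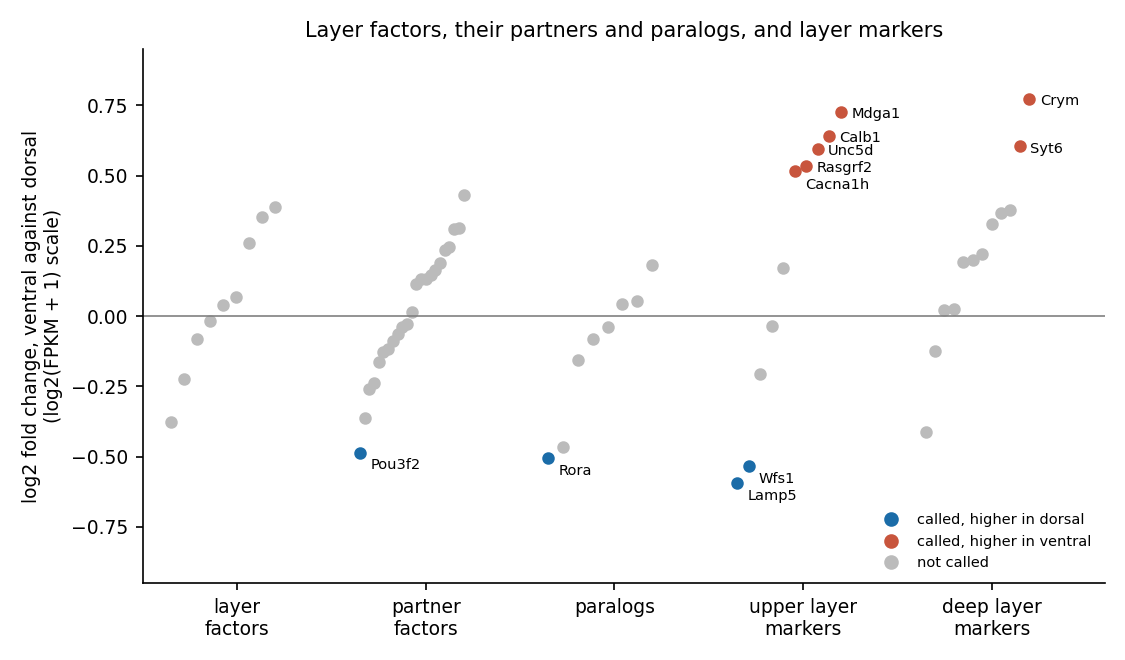
Log2 fold change, ventral against dorsal on the log2(FPKM + 1) scale, of each tested gene (points) in the 9 layer factors, 23 partner factors, 8 paralogs, 10 upper layer and 12 deep layer markers, with called genes in blue (higher in dorsal) or red (higher in ventral) and named. Called genes are 0 of 9 layer factors, 1 of 23 partners, 1 of 8 paralogs, 7 of 10 upper layer and 2 of 12 deep layer markers, beside 3.60% of all genes. The lists were chosen with earlier results of these data known and were not tested against each other.

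Markers of other cells in the tissue moved between the regions too. Calls among them stand beside 2.15% of all genes called as higher in dorsal and 1.45% as higher in ventral MEC. All 6 of 6 oligodendrocyte markers were higher in dorsal MEC, with a summed level of 808 to 1074 FPKM in dorsal and 447 to 586 FPKM in ventral libraries. Of 7 GABAergic neuron genes, Pvalb was higher in dorsal and Sst in ventral MEC, and of 4 leptomeningeal genes (3 tested) Dcn was higher in ventral MEC. The summed leptomeningeal level was 28.04 to 37.0 FPKM in dorsal and 54.2 to 67.4 FPKM in ventral libraries. Most of this sum was Dcn itself, with means of 24.3 and 48.4 FPKM. Col1a2 and Slc6a13 were not called and Col1a1 was not tested. Their ventral means were higher, with ranges that overlapped. The GABAergic sum was 235 to 307 FPKM in dorsal and 314 to 406 FPKM in ventral libraries, and its difference came from Sst. Dorsal and ventral means were 109 and 220 FPKM for Sst, 60.9 and 54.9 for Gad1, and 15.7 and 6.63 for Pvalb. Gad2, Slc32a1, Vip and Lhx6 had higher ventral means, by far less than Sst in FPKM, so the sum does not describe the list as a whole. Among 4 genes of glutamatergic neurons, Slc17a6 was higher in dorsal MEC, while Slc17a7, the vesicular transporter of cortical excitatory neurons, measured 107 ± 8.97 and 105 ± 9.67 FPKM (SD, n = 4 each). The astrocyte, microglia, endothelial, oligodendrocyte precursor, choroid plexus, dentate gyrus and striatum lists had 0 called genes. The sums of some of these lists were still apart between the regions. Sums were higher in ventral libraries for astrocytes (127 to 133 against 144 to 154 FPKM), precursors (8.96 to 9.84 against 11.3 to 11.9) and striatum (5.71 to 6.90 against 7.07 to 7.91). The dentate gyrus sum was lower there (4.62 to 5.29 against 3.23 to 4.50), and the microglia, endothelial and choroid plexus sums overlapped. Most of the dentate gyrus sum was Prox1, with dorsal and ventral means of 4.48 and 3.49 FPKM. Dsp (0.092 and 0.026) and Tdo2 (0.367 and 0.405) were low and did not share a direction. The choroid plexus genes summed to no more than 1.40 FPKM in any library, and Ttr and Folr1 were listed at 0 in all ventral libraries. The part of these cell types in the differences of the layer factors was not tested.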

How the data were processed

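The authors pooled tissue by region, amplified cDNA, sequenced paired ends, aligned them with TopHat2 2.0.8 to GRCm38 with the Ensembl annotation, and deposited the FPKM of each gene and library as obtained from Cuffdiff, which scales the libraries to each other. CASAVA 1.8 is also named in the submitters' processing notes. The deposited comparison table also holds fold changes, p-values and q-values of the authors, which were not used.

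Columns were assigned to regions by their means. At a tolerance of 0.1%, the means of the assigned columns equalled the deposited condition means for 38546 (dorsal) and 38544 (ventral) of 38553 genes, and the regional listing of the study for 1487 of 1487 genes. This rests on values, and 4 of 8 headers name the other region. A table of estimated fragments, which names conditions and not samples, was not used, and 4 columns of per-sample values were left out. The count test set by the design was therefore replaced by its substitute, limma 3.58.1 (R 4.3.3) with a mean-variance trend on log2(FPKM + 1).

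Of the 14989 genes that the authors' status column passes for testing, the 13674 with a mean FPKM of 1 or more entered the fit. Calls needed an adjusted p under 0.05 and a ratio of means of at least 1.2 (log2 0.263). Intervals are 95%. Members and lists were chosen with earlier results of these data known. The genes named are the members, the paralogs set in ratios to them and the called genes of the lists, and others were named after their values were seen. Some genes of the lists are not reported here by name. No member was called, so no genes of like pattern were sought. The fit and the permutation test were tested on simulated data. Alternatives were another constant, other filters and no limit on the ratio, leaving out each library and, chosen after seeing the data, the headers' regions, one total per library and both Cux2 entries summed. Python 3.11.15, NumPy 2.4.6, SciPy 1.17.1, pandas 2.3.3 and matplotlib 3.10.9 were used.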

Additional observations from a re-analysis of the deposited data

Results flagged for a closer look

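Among 18 groups of 4 libraries, 1 for each member and region, 1 held a value that stood apart by Dixon's test, about as many as chance gives at 1 in 20 groups. It was Cux2 in ventral MEC, where ventral library 1 measured 15.5 FPKM and the others between 11.8 and 12.3. The header of that library carries the dorsal letter. Without it, the log2 fold change of Cux2 was -0.17 (limma adjusted p = 0.280).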

How the results depend on the processing

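No member was called with a constant of 0.1, without the FPKM limit, at a mean FPKM of at least 5, without the ratio limit, at one total per library, by the headers' regions or in the 4 libraries whose headers name the region used, and between 0 and 1 were higher in dorsal MEC when each library was left out (Cux1, without ventral library 3). Over all genes, leaving out each library moved the 294 genes higher in dorsal to between 157 and 341 and the 198 higher in ventral to between 91 and 191. By the headers' regions 1 and 0 genes were called (721 at an unadjusted p under 0.05), and in the 4 libraries 0 and 0 (1240 unadjusted). At one total per library 195 were higher in dorsal and 201 in ventral MEC. By the headers' regions, log2 fold changes were reversed to 0.035 for Cux1, 0.21 for Sox5, -0.096 for Etv1 and 0.043 for Rorb, and ratio differences to 0.17 for Cux1/Cux2 and -0.089 for Fezf2/Bcl11b. Rorb was also reversed in the 4 libraries (0.024) and at one total (0.027). Without each library it ran from -0.071 to 0.054, reversing without dorsal library 4, and Tbr1 from -0.040 to 0.091, reversing without dorsal library 2 or ventral library 4. Partner and paralog factors called ran from 1 to 3 (dorsal) and from 0 to 1 (ventral) without each library, and layer markers higher in ventral from 3 to 5. By the headers and in the 4 libraries, 0 of these factors and 0 layer markers were called in either direction. The cause of these changes was not tested.

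No paired analysis was possible because which dorsal and ventral libraries share mice is not given. DESeq2, its size factors, edgeR's filter and the estimated fragment rate were not run, because the fragment table was not used.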
